A study of Aethionema arabicum with 12 samples.

Results

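NAC transcription factors are one of the large families of plant regulators. Members share a DNA-binding NAC domain near the N terminus and differ in the C-terminal part that activates or represses target genes. Some are made as precursors anchored in a membrane by a C-terminal helix and enter the nucleus after release. In Arabidopsis thaliana they are known for abscisic acid (ABA) and stress responses, leaf senescence, organ boundaries, root cap formation and the making of xylem and phloem, and several act in seeds or at germination.

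Transcripts of the family were counted in seeds of the annual crucifer Aethionema arabicum after imbibition. Members were the gene models whose matching Arabidopsis description names a NAC domain, the No Apical Meristem family or a NAC-like protein, which was true of 82 of 23594 models. Of these, 40 had at least 1 CPM (counts relative to library size) in at least 3 of the 12 libraries and were tested, among 15671 models tested in all. The 40 match 35 Arabidopsis loci, and their names and roles are those of the matching Arabidopsis genes. The other 42 had 0 reads (14 models) or stayed under the filter (28 models). No genome or protein sequence was used here, so members are given by model name without coordinates or sequences.

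Seeds came from the Turkish accession ES1020 (TUR) and a Cyprus accession (CYP), neither of which carries a stated mutation or transgene. After imbibition they spent 23 h either dark or illuminated with 100 µmol m-2 s-1 of white light, which gave 4 groups of 3 libraries: TUR dark, TUR light, CYP dark and CYP light. Only intact, ungerminated seeds were taken, and their poly(A) RNA was sequenced from whole seeds. The series compared how seeds of the accessions respond to light. Total counts were 7099578 to 13953792 per library, so that 3 counts in a library stand for 0.215 to 0.423 CPM. Replicate libraries of a group correlated at 0.98045 to 0.99216 on log2 CPM across genes, and both lowest values involved CYP dark replicate 3. Without that library the number of members that passed the test went from 11 to 10 in the CYP light comparison and from 20 to 19 between accessions in darkness.

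Seed tissue markers were present in every library: summed over 6 models of seed storage proteins and oleosins, of which 1 had 0 reads, RPKM was 1643 to 2685 for TUR dark, 2133 to 4013 for TUR light, 3485 to 4124 for CYP dark and 5985 to 6358 for CYP light. Over 2 endosperm models the sums were 132.9 to 135.4, 94.03 to 111.0, 151.3 to 157.9 and 101.6 to 116.6 in the same order, and over 2 models of embryo epidermis 47.55 to 73.65, 31.85 to 37.28, 55.37 to 80.48 and 23.98 to 24.73. The seed coat sums, over 4 models, lay between 18.78 and 30.42 in all groups, but the single models moved in different directions. In the same order, group means were 17.5, 14.7, 11.5 and 6.17 RPKM for MUM4 and 4.22, 5.70, 8.69 and 11.6 for PER36. TTG2 stood at 3.45, 7.01, 2.46 and 7.43 RPKM, and BAN at 0.255, 0.260, 0.129 and 0.0942. The storage and oleosin sums were thus higher in light than in dark libraries in CYP, and the endosperm sums were lower in light in both accessions. The epidermis sums were lower in light through PDF1 alone, with group means of 46.7 RPKM in TUR dark, 17.1 in TUR light, 50.8 in CYP dark and 8.23 in CYP light. The other epidermis marker, ATML1, stood at 14.8, 17.1, 14.8 and 16.1 RPKM in the same order. Between accessions, the storage and oleosin sums were higher in CYP in each condition. The part of these shifts in the differences below was not tested. In bulk seeds fewer cells of a type and less RNA per cell cannot be told apart.

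Most members were low. Their median level was 1.93 RPKM (CPM after TMM scaling, per kilobase of model length, mean of 12 libraries), against 9.65 RPKM for all models tested. A total of 15 members lay under 1 RPKM, 12 between 1 and 5, and 13 at 5 or more. The 6 highest held 63.05% of the RPKM summed over the 40, and the lowest lay at 0.233 RPKM. Levels of 2 members with models over 8 kb, ANAC078 and ANAC046, depend on a deposited length of that size.

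The highest was VNI2 (AA44G00526), a repressor of the vessel regulator VND7 that also acts in leaf ageing, at 65.7 RPKM. By library it gave 66.9, 65.3 and 64.1 CPM in TUR darkness against 73.5, 68.3 and 86.98 in TUR light, and 49.7, 52.4 and 53.7 in CYP darkness against 55.7, 60.5 and 57.7 in CYP light. TUR libraries were all above CYP libraries, and neither light comparison was called (adjusted p = 0.112 in TUR and 0.255 in CYP). Second came ATAF1 (AA1G00095), a stress and ABA factor, at 49.6 RPKM, followed by ANAC060 (AA24G00045), a membrane-tethered factor of the sugar and ABA response in seedlings, at 26.3 RPKM. ANAC017 (AA54G00138) and ANAC013 (AA39G00465), membrane-bound factors that relay mitochondrial stress, lay at 20.6 and 20.3 RPKM, and ANAC032 (AA31G00236), a stress factor that represses anthocyanin synthesis, at 19.1 RPKM. ANAC060 gave 71.4, 83.6 and 91.6 CPM in TUR darkness against 67.7, 64.6 and 70.6 in TUR light, and 91.7, 83.3 and 83.9 in CYP darkness against 80.5, 81.8 and 78.7 in CYP light. ANAC017 gave 57.4, 49.3 and 50.7 CPM in TUR darkness against 50.7, 49.5 and 50.5 in TUR light, and 43.1, 45.5 and 68.1 in CYP darkness against 43.7, 42.1 and 43.6 in CYP light. The 68.1 CPM of CYP dark replicate 3 stood apart from the other 11 values of ANAC017, which ran from 42.1 to 57.4 CPM, and neither of its light comparisons passed the test (adjusted p = 0.782 in TUR and 0.155 in CYP). Without CYP dark replicate 1 the CYP light difference of ANAC017 passed (adjusted p = 0.0440), and without replicate 3 the accession difference in darkness did (adjusted p = 0.0455).

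**Figure D1:**
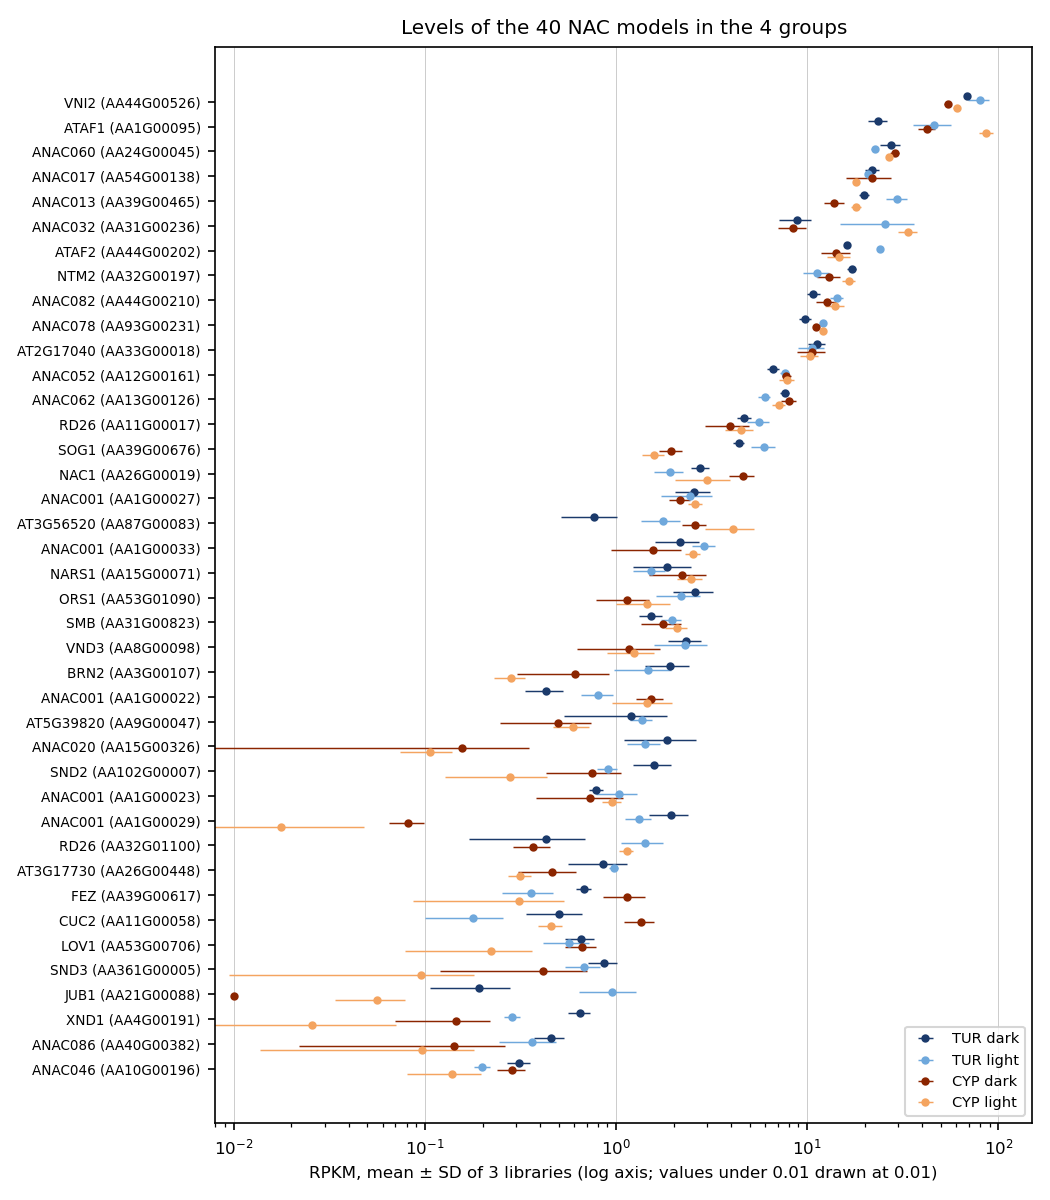
Level of each of the 40 NAC models as group means in RPKM on a log axis, ordered by mean level, with 1 point per group. Most models lie under 5 RPKM, and JUB1 in CYP dark, with 0 reads, is drawn at the left edge.

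Summed over the 40 members, CPM was 529.0 to 572.9 for TUR dark libraries, 589.9 to 674.1 for TUR light, 524.6 to 555.7 for CYP dark and 625.4 to 652.8 for CYP light. Every light library was above every dark library. The 34 members outside the 6 highest summed to 254.8 to 280.5 CPM in dark libraries and 271.4 to 294.5 CPM in light libraries, and these ranges overlapped.

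The stress and ABA factors ATAF1 and ANAC032 were higher in light in both accessions. In TUR 11 members passed the test, 9 higher and 2 lower in light (27.5% of the members, against 18.4% of all models, with 9.17% higher and 9.22% lower). In CYP 11 passed, 5 higher and 6 lower (against 24.9% of all models, with 10.6% higher and 14.3% lower). A difference was called at an adjusted p under 0.05 in edgeR's quasi-likelihood test, adjusted over all models. The median log2 fold change of the members was -0.02 in TUR and 0.02 in CYP, against 0.00 and -0.01 over all models. ATAF1, ANAC032, ANAC013 and a model of RD26 rose in both accessions, CUC2 fell in both, and NTM2 was called in opposite directions. Over all 15671 models 1792 were called in both accessions, 839 higher and 937 lower in light in both. The RD26 model AA32G01100 and JUB1 met the filter through light libraries alone, and FEZ and XND1 through dark libraries alone. Of the other 36, 7 rose and 2 fell in TUR, and 4 rose and 5 fell in CYP. The TUR count was 7 when dark replicate 2 or light replicate 3 was left out, with RLE size factors it was 13, 9 higher and 4 lower, and without CYP light replicate 2 the CYP count was 7.

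Of the 5 members of the stress and ABA group, 4 rose in TUR and 3 in CYP (against 9.17% and 10.6% of all models). Without the RD26 model AA32G01100, which met the filter through light libraries alone, 3 of 4 rose in TUR and 2 of 4 in CYP. ATAF1 gave 27.8, 22.3 and 26.5 CPM in TUR darkness against 60.1, 37.5 and 53.2 in TUR light, and 50.2, 46.5 and 41.3 in CYP darkness against 103, 89.3 and 89.5 in CYP light. Light libraries were above dark libraries in each accession, and the CYP light libraries were the highest of all. ATAF1 rose by a log2 fold change of 0.98 (SE 0.14, adjusted p = 7.61e-05) in TUR and 1.03 (SE 0.14, adjusted p = 2.13e-05) in CYP. ANAC032 gave 15.8, 10.8 and 14.1 CPM in TUR darkness against 55.4, 22.8 and 39.3 in TUR light, and 15.2, 12.9 and 10.8 in CYP darkness against 55.6, 55.4 and 45.3 in CYP light. It was low in all 6 dark libraries and higher in all 6 light ones, with a wide spread in TUR light, where replicate 2 was lowest. Its log2 fold change was 1.54 (SE 0.22, adjusted p = 7.9e-05) in TUR and 1.99 (SE 0.23, adjusted p = 4.4e-06) in CYP.

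RD26, a factor induced by ABA and drought, has 2 tested models, and reads may be split between them. The model AA32G01100 gave 0.769, 0.377 and 0.233 CPM in TUR darkness against 1.87, 1.12 and 1.51 in TUR light, and 0.399, 0.479 and 0.304 in CYP darkness against 1.11, 1.199 and 1.32 in CYP light. The dark values are near the 3-read level of a library. Light and dark libraries did not overlap in either accession. The log2 fold change was 1.71 (SE 0.40, adjusted p = 0.00618) in TUR and 1.57 (SE 0.48, adjusted p = 0.0208) in CYP, it was 2.33 in TUR without dark replicate 1, and in CYP the call ended without CYP dark library 1 or 3 or CYP light library 3 (adjusted p = 0.0524 to 0.0641). The other model, AA11G00017, was higher at 8.18 CPM on average and was not called (0.28 in TUR, 0.16 in CYP). ATAF2 (AA44G00202), known from wounding and defence, gave 16.99, 16.3 and 17.1 CPM in TUR darkness against 25.8, 24.2 and 24.6 in TUR light, and 12.5, 14.4 and 17.5 in CYP darkness against 12.97, 16.95 and 15.9 in CYP light. Only the TUR light libraries stood apart for ATAF2, which rose in TUR by a log2 fold change of 0.57 (SE 0.13, adjusted p = 0.00384) and had a log2 fold change of 0.06 (SE 0.14, adjusted p = 0.776) in CYP, while the difference between these responses was not called (adjusted p = 0.209).

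**Figure D2:**
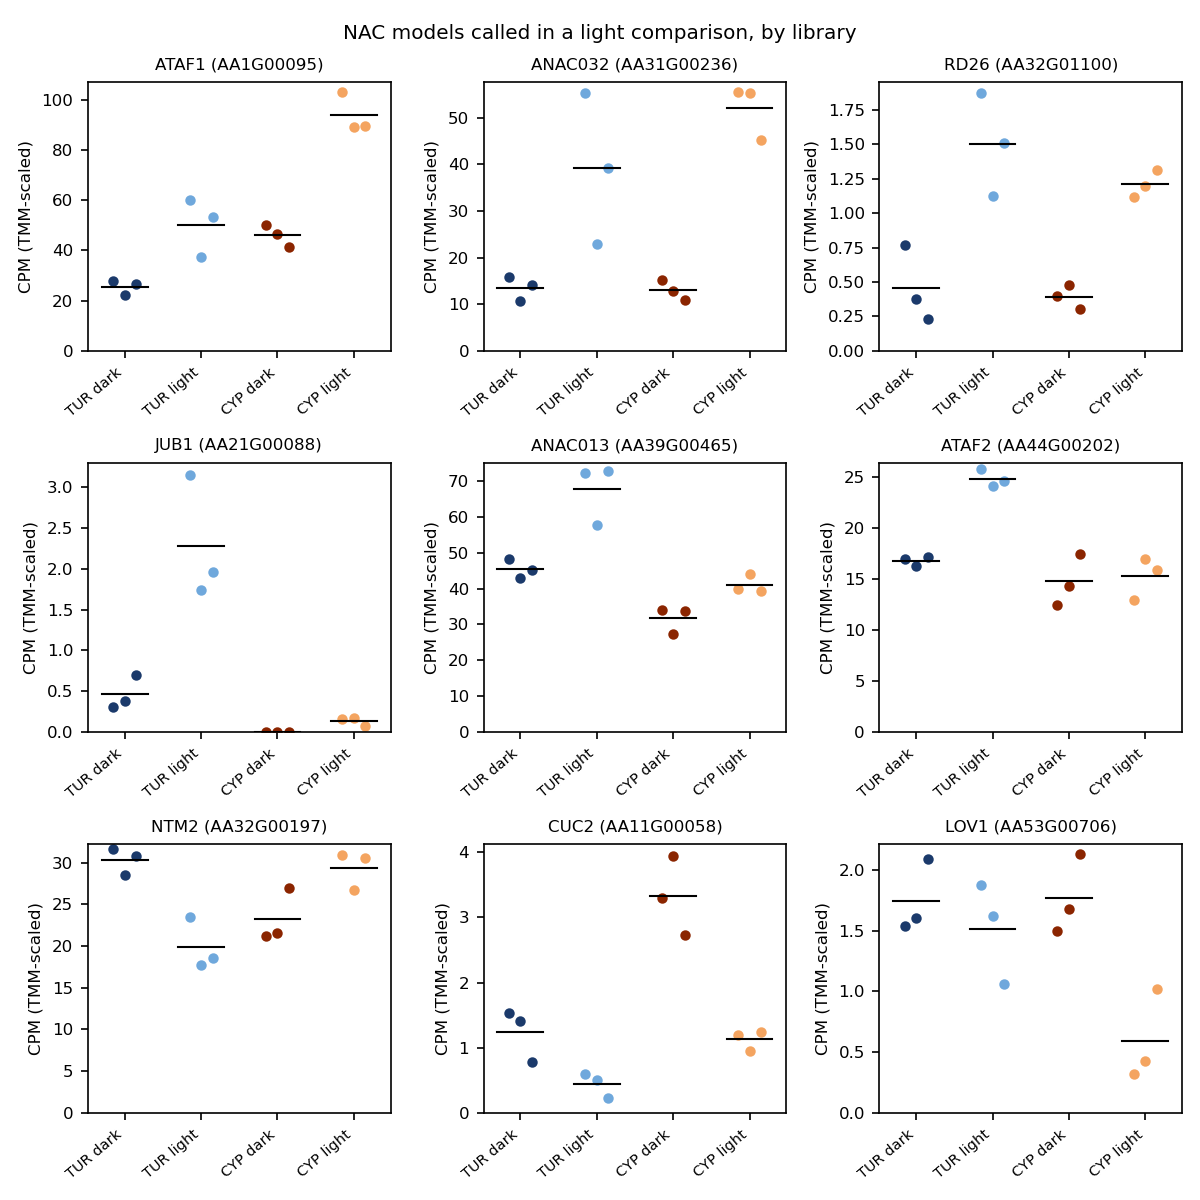
CPM (TMM-scaled, linear axes from 0) of 9 NAC models called in a light comparison, with 1 point per library and a bar at the mean of 3. ATAF1, ANAC032, ANAC013 and the RD26 model AA32G01100 are higher in light in both accessions. JUB1 and ATAF2 are high in TUR light, and NTM2 falls in TUR and is higher in CYP light. AA32G01100 and JUB1 met the filter through light libraries alone. The other RD26 model, AA11G00017, was not called and is not drawn.

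Of the 10 tested members of the membrane-bound group, 5 of which are copies that match ANAC001, 2 rose and 1 fell in TUR, and 2 rose in CYP. Over all models 9.17% rose and 9.22% fell in TUR, and 10.6% rose in CYP. ANAC013 gave 48.1, 42.9 and 45.3 CPM in TUR darkness against 72.2, 57.9 and 72.9 in TUR light, and 34.1, 27.4 and 33.6 in CYP darkness against 39.96, 44.1 and 39.3 in CYP light. Light was above dark in each accession, and TUR was above CYP in each condition. Its log2 fold change was 0.58 (SE 0.11, adjusted p = 0.000919) in TUR and 0.38 (SE 0.11, adjusted p = 0.0217) in CYP, where the call ended without CYP dark library 2 or CYP light library 2 (adjusted p = 0.0801 to 0.114). ANAC078 (AA93G00231), known from proteasome stress and from flavonoid genes in high light, gave 75.3, 77.2 and 86.2 CPM in TUR darkness against 95.5, 103 and 98.5 in TUR light, and 89.4, 90.1 and 92.4 in CYP darkness against 101, 97.9 and 98.6 in CYP light. It rose by a log2 fold change of 0.31 (SE 0.08, adjusted p = 0.0146) in TUR and had a log2 fold change of 0.13 (SE 0.09, adjusted p = 0.3005) in CYP, and the TUR call ended without TUR dark library 1 or 2 or TUR light library 2 or 3 (adjusted p = 0.0667 to 0.0703). ANAC082 (AA44G00210), a factor of the response to ribosomal stress, rose in TUR by a log2 fold change of 0.41 (SE 0.12, adjusted p = 0.0223), and that call ended without TUR dark library 2 or 3 or TUR light library 1 or 3 (adjusted p = 0.0767 to 0.141). SOG1 (AA39G00676), the master regulator of the plant DNA damage response, was not called in either light comparison (adjusted p = 0.0726 in TUR and 0.320 in CYP).

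Among the 4 tested members tied to senescence and cell death, JUB1 rose in TUR and ANAC046 fell in CYP. Over all models 9.17% rose in TUR and 14.3% fell in CYP. JUB1 met the filter through TUR light libraries alone. JUB1 (AA21G00088), a longevity factor that restrains gibberellin and brassinosteroid synthesis, gave 0.308, 0.377 and 0.698 CPM in TUR darkness against 3.15, 1.75 and 1.96 in TUR light, and 0, 0 and 0 in CYP darkness against 0.159, 0.171 and 0.0731 in CYP light. It was detected mainly in TUR light, where every library was above the TUR dark ones, and its TUR log2 fold change was 2.30 (SE 0.41, adjusted p = 0.000798). In CYP there were 0 reads in darkness and 5 in light, and the difference was not called (adjusted p = 0.131). Set against 3 reads summed over the group, the 5 reads give a 1.10-fold ratio, which leaves out their counting error. ANAC046 (AA10G00196), a promoter of chlorophyll breakdown, gave 2.77, 3.30 and 3.64 CPM in TUR darkness against 1.87, 2.24 and 2.12 in TUR light, and 3.495, 2.51 and 2.89 in CYP darkness against 2.07, 1.37 and 0.878 in CYP light. Its log2 fold change was -1.06 (SE 0.30, adjusted p = 0.0146) in CYP, where the call ended without CYP dark library 1 or CYP light library 3, or in limma (adjusted p = 0.0719 to 0.128), and -0.65 (SE 0.27, adjusted p = 0.107) in TUR.

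Members that build boundaries, roots and vascular tissue all averaged under 5 CPM, and the few that were called for light were lower in light. Of the 3139 models at that level, 6.88% were called lower in light in TUR and 10.6% in CYP. Of 5 boundary and root members 1 fell in TUR and 2 in CYP, and without FEZ, which met the filter through CYP dark libraries alone, 1 of 4 fell in each accession. Of 6 vascular members 2 fell in CYP. In TUR 0 of the 6 were called in edgeR or DESeq2 and 1 in limma, and 2 had an unadjusted p under 0.05 in edgeR. CUC2 (AA11G00058), which sets organ boundaries, gave 1.54, 1.41 and 0.775 CPM in TUR darkness against 0.5998, 0.499 and 0.227 in TUR light, and 3.296, 3.95 and 2.74 in CYP darkness against 1.19, 0.942 and 1.24 in CYP light. CYP dark was highest, and light lay under dark in both accessions. CUC2 fell, at a log2 fold change of -1.48 (SE 0.43, adjusted p = 0.0224) in TUR and -1.56 (SE 0.32, adjusted p = 0.00134) in CYP. The TUR call ended without TUR dark library 1 or 2 or TUR light library 3, or in limma (adjusted p = 0.0504 to 0.116). FEZ (AA39G00617), which drives root cap stem cell division, gave 0.769, 0.849 and 0.931 CPM in TUR darkness against 0.375, 0.374 and 0.605 in TUR light, and 1.099, 1.79 and 1.37 in CYP darkness against 0.637, 0.0856 and 0.439 in CYP light. CYP dark libraries were the highest and did not overlap CYP light, where the log2 fold change was -1.81 (SE 0.47, adjusted p = 0.00886).

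SND3 (AA361G00005) and SND2 (AA102G00007), regulators of secondary wall formation, were low throughout. SND3 gave 1.00, 1.32 and 1.396 CPM in TUR darkness against 0.7498, 1.12 and 1.06 in TUR light, and 0.399, 1.08 and 0.304 in CYP darkness against 0.239, 0.171 and 0 in CYP light. SND2 gave 1.999, 2.36 and 3.102 CPM in TUR darkness against 1.57, 1.25 and 1.44 in TUR light, and 1.398, 0.598 and 1.52 in CYP darkness against 0.637, 0.171 and 0.512 in CYP light. For SND3 all CYP light libraries lay under the CYP dark ones, and for SND2 replicate 2 of CYP dark lay within the CYP light range. The CYP light log2 fold change was -2.09 (SE 0.75, adjusted p = 0.0478) for SND3 and -1.36 (SE 0.48, adjusted p = 0.0473) for SND2. The SND3 call ended without CYP dark library 2 or CYP light library 2 or 3, or in limma, with no filter or with only the groups compared (adjusted p = 0.0565 to 0.2899), and that of SND2 without CYP dark library 1 or 3 or CYP light library 2 or 3, or in limma, with no filter or with only the groups compared (adjusted p = 0.0538 to 0.168). LOV1 (AA53G00706), which controls flowering time and cold response, gave 1.54, 1.603 and 2.09 CPM in TUR darkness against 1.87, 1.62 and 1.06 in TUR light, and 1.498, 1.68 and 2.13 in CYP darkness against 0.318, 0.428 and 1.02 in CYP light. For LOV1 every CYP light library lay under every other library, with a log2 fold change of -1.51 (SE 0.42, adjusted p = 0.0136) against CYP dark. The call ended without CYP light library 1 or 2 (adjusted p = 0.0519 to 0.0651), and the log2 fold change was -2.19 without CYP light replicate 3.

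AA87G00083, a NAC model that matches AT3G56520, gave 1.85, 0.943 and 1.396 CPM in TUR darkness against 3.75, 2.37 and 3.48 in TUR light, and 5.19, 5.03 and 3.95 in CYP darkness against 9.31, 7.96 and 5.12 in CYP light. Light was above dark in TUR, the CYP ranges overlapped, and CYP was above TUR in both conditions. It rose in TUR by a log2 fold change of 1.20 (SE 0.31, adjusted p = 0.0107), a call that ended without TUR dark library 2 or TUR light library 1 or 3 (adjusted p = 0.0507 to 0.0632), and had a log2 fold change of 0.64 (SE 0.24, adjusted p = 0.0634) in CYP, which passed with no filter and without CYP light replicate 3 (adjusted p = 0.0145). Of the 2 seed members, ANAC060 had a log2 fold change of -0.28 (SE 0.10, adjusted p = 0.0521) in TUR, which was not called, although it passed without TUR dark replicate 1 (adjusted p = 0.0170), with RLE size factors, in DESeq2 and with a filter at 5 CPM. NARS1 (AA15G00071), known from embryo and seed coat development together with NARS2, gave 3.31, 1.79 and 2.09 CPM in TUR darkness against 2.32, 1.995 and 1.59 in TUR light, and 3.99, 2.39 and 2.28 in CYP darkness against 3.34, 2.65 and 3.58 in CYP light. Its ranges overlapped between light and dark in both accessions and it was not called, at a log2 fold change of -0.30 (SE 0.30, adjusted p = 0.542) in TUR and 0.11 (SE 0.29, adjusted p = 0.815) in CYP.

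For NTM2 alone among the 40 the difference between the light responses was called (1 of 40, against 2.24% of all models, 0.408% with a higher and 1.83% with a lower response in CYP). NTM2 (AA32G00197) is a membrane-bound factor that in Arabidopsis links salt and auxin signals during germination. It gave 31.6, 28.5 and 30.8 CPM in TUR darkness against 23.5, 17.7 and 18.6 in TUR light, and 21.2, 21.5 and 26.9 in CYP darkness against 30.9, 26.7 and 30.6 in CYP light. In TUR it was higher in all dark libraries, and in CYP the light libraries were higher except that CYP dark replicate 3, at 26.9 CPM, was above CYP light replicate 2, at 26.7 CPM. NTM2 fell in TUR, at a log2 fold change of -0.60 (SE 0.12, adjusted p = 0.00233), and rose in CYP by a log2 fold change of 0.35 (SE 0.13, adjusted p = 0.0482). The difference, CYP minus TUR, was 0.95 (SE 0.18, adjusted p = 0.00633). It was called with each of the 12 libraries left out in turn, whereas the CYP rise itself ended without CYP dark library 1 or 2 or CYP light library 1 or 3, or in DESeq2 or with only the groups compared (adjusted p = 0.0502 to 0.162). CYP against TUR, the log2 fold change was -0.40 (SE 0.13, adjusted p = 0.0159) in darkness and 0.55 (SE 0.12, adjusted p = 0.00104) in light, and the dark call ended without TUR dark library 1 or CYP dark library 1 or 2 (adjusted p = 0.0506 to 0.0745). At an unadjusted p under 0.05 the difference was met by 4 members, 3 of them with a lower response in CYP.

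**Figure D3:**
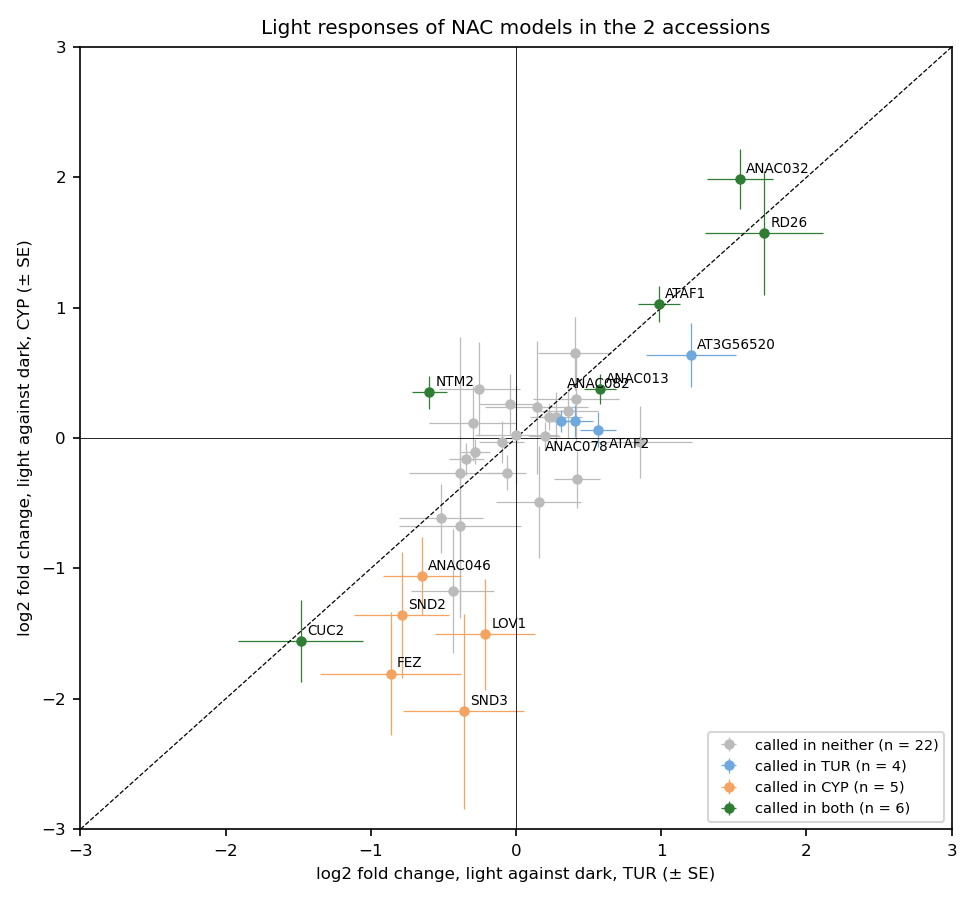
Log2 fold change of light against dark in TUR (x) and CYP (y) for 37 NAC models, with SE bars and colours for the comparison in which a model was called. NTM2 is the called model at the upper left. ATAF1, ANAC032, ANAC013 and the RD26 model AA32G01100 lie upper right, and CUC2 lower left. The other RD26 model, AA11G00017, was called in neither accession. The 3 models with at most 3 reads in a CYP group are not drawn.

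Between accessions, most called members were lower in CYP, and 11 of the 15 called lower in darkness lay under 5 CPM on average. In darkness 20 members were called, 5 higher and 15 lower in CYP (against 44.5% of all models, 22.4% higher and 22.1% lower). In light 23 were called, 7 higher and 16 lower (against 52.7%, 24.9% higher and 27.8% lower). Of these, 18 were called in both conditions, 13 lower and 4 higher in both, and NTM2 in opposite directions. Over all 15671 models 5704 were called in both conditions, 2921 lower and 2769 higher in both. The median log2 fold change of the members was -0.21 in darkness and -0.28 in light, against 0.00 and -0.02 over all models. Among models under 5 CPM on average, 15 of 24 members were called in darkness, 4 higher and 11 lower (16.7% and 45.8%, against 13.4% and 26.1% of 3139 models). Of the 18 of these that met the filter in both accessions, 4 were higher and 6 lower. In light 4 of the 24 were higher and 12 lower (16.7% and 50%, against 14% and 31.5%). Among the same 18, 4 were higher and 7 lower in light. Among models at 5 CPM or more, 1 of 16 members was higher and 4 lower in darkness (against 24.6% and 21.1% of 12532 models). Of the 16, 3 were higher and 4 lower in light (against 27.6% and 26.9%). The filter was met through TUR libraries alone by 5 members and through CYP libraries alone by 1. The 5 were ANAC020, ANAC086, XND1, JUB1 and AA1G00029, all called lower in CYP in both conditions, a direction that the filter itself favours. The 1 was FEZ, which was not called between accessions, at a log2 fold change of 0.72 (SE 0.42, adjusted p = 0.169) in darkness and -0.22 (SE 0.56, adjusted p = 0.761) in light. Among the 34 that met it in both accessions, 5 were higher and 10 lower in CYP in darkness, and 7 higher and 11 lower in light. How far sequence differences from the gene models lower the counts of an accession cannot be told apart from its expression here.

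All 6 vascular members were lower in CYP in light, and 5 of 6 in darkness. Of these ANAC020, ANAC086 and XND1 met the filter through TUR libraries alone, which favours this direction. Without them 3 of 3 were lower in light and 2 of 3 in darkness. All 6 averaged under 5 CPM. Of the 3139 models at that level, 31.5% were called lower in CYP in light and 26.1% in darkness. ANAC020 (AA15G00326), a factor of phloem sieve elements, gave 2.08, 3.30 and 1.47 CPM in TUR darkness against 1.87, 1.995 and 1.36 in TUR light, and 0, 0.1197 and 0.456 in CYP darkness against 0.159, 0.0856 and 0.146 in CYP light. Every TUR library was at least 1.36 CPM and every CYP library at most 0.456 CPM. The log2 fold change, CYP against TUR, was -3.71 (SE 0.61, adjusted p = 8.22e-05) in darkness and -3.60 (SE 0.59, adjusted p = 5.49e-05) in light, and in darkness it ran from -3.01 without CYP dark replicate 1 to -5.11 without replicate 3. ANAC086 (AA40G00382), which acts in the loss of the nucleus from sieve elements, gave 1.61, 1.41 and 2.02 CPM in TUR darkness against 1.05, 1.87 and 1.13 in TUR light, and 0.999, 0.1197 and 0.456 in CYP darkness against 0.318, 0.685 and 0.0731 in CYP light. It was lower in every CYP library than in every TUR library, at a log2 fold change of -1.59 (SE 0.53, adjusted p = 0.0217) in darkness and -1.87 (SE 0.56, adjusted p = 0.00906) in light. The dark call ended without TUR dark library 3 or CYP dark library 2 (adjusted p = 0.0651 to 0.104) and the light call without CYP light library 3 (adjusted p = 0.0507).

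XND1 (AA4G00191), which restrains xylem formation, gave 1.31, 1.04 and 1.32 CPM in TUR darkness against 0.5998, 0.499 and 0.529 in TUR light, and 0.399, 0.1197 and 0.304 in CYP darkness against 0, 0 and 0.146 in CYP light. Again no CYP library reached a TUR library, with a dark log2 fold change of -2.09 (SE 0.53, adjusted p = 0.00381). In light, 19 TUR reads stood against 2 CYP reads, a 10.4-fold ratio with a 95% counting interval of 2.51 to 92.2. VND3 (AA8G00098), a switch for vessel formation, was lower, at a log2 fold change of -0.94 (SE 0.34, adjusted p = 0.0324) in darkness and -0.92 (SE 0.32, adjusted p = 0.0203) in light. Its dark call ended without TUR dark library 2 or 3 or CYP dark library 1 or 3 (adjusted p = 0.0636 to 0.115) and its light call without TUR light library 3 or CYP light library 1 or 3 (adjusted p = 0.0754 to 0.182). SND2 was lower, at a log2 fold change of -1.09 (SE 0.36, adjusted p = 0.0208) in darkness and -1.66 (SE 0.44, adjusted p = 0.00377) in light, and its dark call ended without TUR dark library 3 or CYP dark library 2 (adjusted p = 0.0859 to 0.112). SND3 was lower in light, at a log2 fold change of -2.76 (SE 0.64, adjusted p = 0.00142), which was -2.16 without CYP light replicate 3 and -3.40 without replicate 1. It had a log2 fold change of -1.02 (SE 0.49, adjusted p = 0.101) in darkness, which passed without CYP dark replicate 2 (adjusted p = 0.0279).

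**Figure D4:**
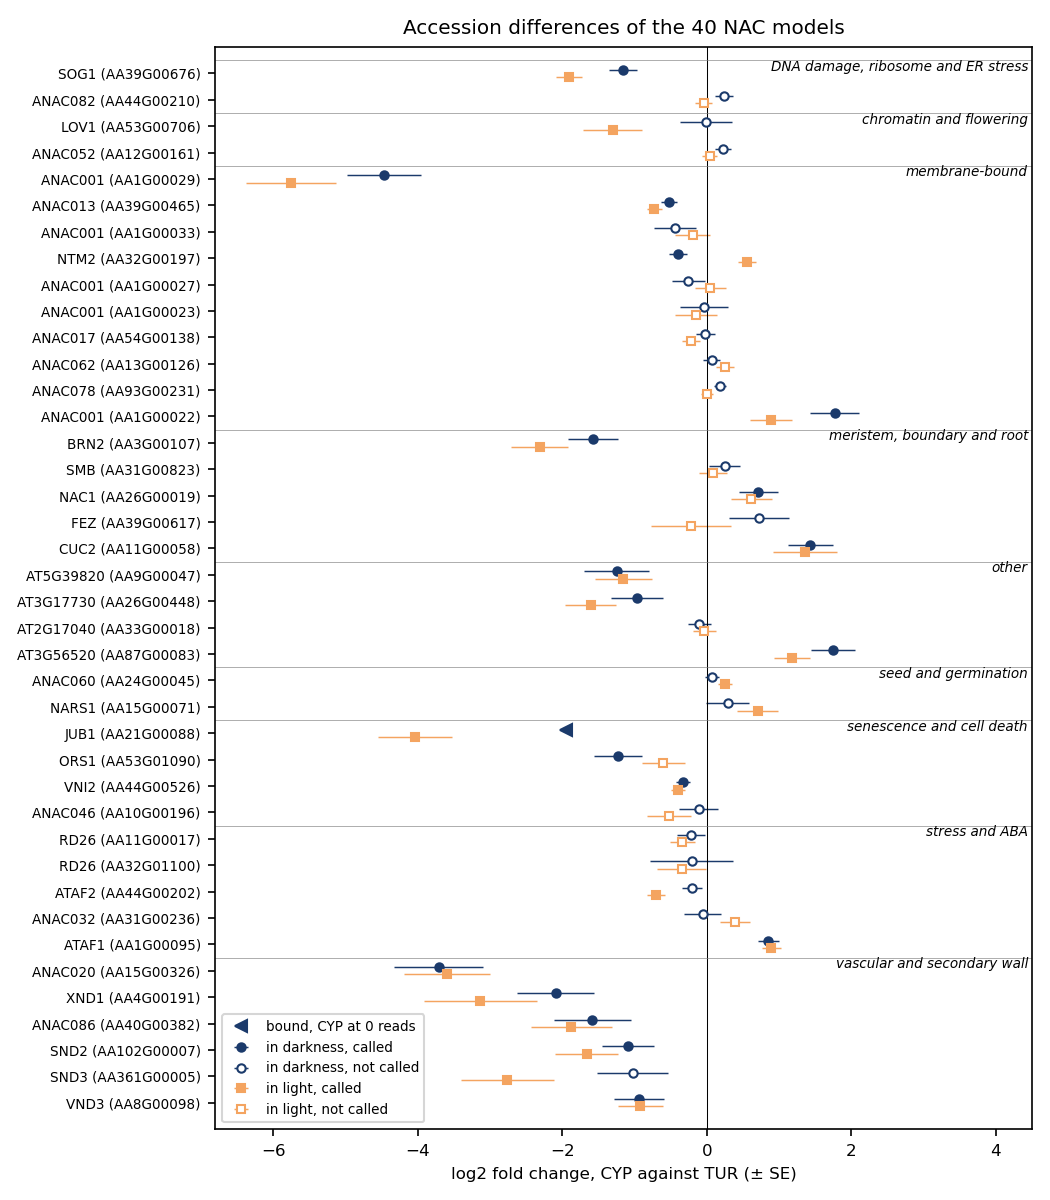
Log2 fold change of CYP against TUR, dark and light separately, for all 40 NAC models, with SE bars. Models are grouped by role and ordered within a role by the dark value, and open symbols were not called. Vascular members lie on the side lower in CYP. The triangle marks JUB1 in darkness at its ratio against 3 reads summed over the group, since CYP dark had 0 reads.

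Further members lower in CYP act in roots, ageing and DNA repair. BRN2 (AA3G00107), a root cap factor, gave 3.08, 3.39 and 4.89 CPM in TUR darkness against 2.85, 3.87 and 1.96 in TUR light, and 1.897, 0.957 and 0.7601 in CYP darkness against 0.637, 0.599 and 0.439 in CYP light. TUR and CYP libraries did not overlap, with a log2 fold change of -1.57 (SE 0.35, adjusted p = 0.00126) in darkness and -2.31 (SE 0.39, adjusted p = 7.42e-05) in light. SOG1 gave 7.61, 6.98 and 7.99 CPM in TUR darkness against 8.85, 11.7 and 10.1 in TUR light, and 3.79, 2.87 and 3.34 in CYP darkness against 2.39, 3.08 and 2.63 in CYP light. Its TUR libraries were all above its CYP libraries, and the log2 fold change was -1.17 (SE 0.19, adjusted p = 8.02e-05) in darkness and -1.90 (SE 0.18, adjusted p = 8.06e-08) in light. JUB1 had 17 reads in TUR dark and 0 in CYP dark, a 3.87-fold ratio when CYP dark is set at 3 reads summed over the group. Its light log2 fold change was -4.04 (SE 0.51, adjusted p = 6.08e-06). ORS1 (AA53G01090), which promotes leaf senescence, was lower in darkness, at a log2 fold change of -1.23 (SE 0.33, adjusted p = 0.005703). VNI2 was lower in CYP at a log2 fold change of -0.34 (SE 0.10, adjusted p = 0.00919) in darkness and -0.40 (SE 0.10, adjusted p = 0.00177) in light. For ANAC013 the values were -0.52 (SE 0.11, adjusted p = 0.00113) in darkness and -0.72 (SE 0.11, adjusted p = 1.91e-05) in light. ATAF2 was lower in light, at a log2 fold change of -0.70 (SE 0.13, adjusted p = 0.000132). LOV1 was lower in light, at a log2 fold change of -1.30 (SE 0.41, adjusted p = 0.0124), which was -1.99 without CYP light replicate 3 and not called without TUR light library 1 or CYP light library 1 or 2 (adjusted p = 0.0516 to 0.07898).

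Of the members higher in CYP, ATAF1 differed by a log2 fold change of 0.85 (SE 0.15, adjusted p = 0.000114) in darkness and 0.89 (SE 0.14, adjusted p = 2.2e-05) in light. AA87G00083 differed by 1.74 (SE 0.31, adjusted p = 0.000152) in darkness and 1.18 (SE 0.24, adjusted p = 0.000538) in light, and CUC2 by 1.43 (SE 0.32, adjusted p = 0.00119) in darkness and 1.36 (SE 0.44, adjusted p = 0.0141) in light, on the same scale. The light call of CUC2 ended without TUR light library 3 (adjusted p = 0.0774). For ATAF1 every CYP library was above every TUR library of its condition. NAC1 (AA26G00019), an auxin factor of lateral roots, gave 2.15, 2.26 and 2.64 CPM in TUR darkness against 1.95, 1.497 and 1.44 in TUR light, and 3.69, 3.47 and 4.56 in CYP darkness against 3.02, 2.997 and 1.61 in CYP light. It was higher in CYP dark than in all TUR libraries, by a log2 fold change of 0.71 (SE 0.27, adjusted p = 0.0365) against TUR dark, and that call ended without TUR dark library 1 or 2 or CYP dark library 1 or 3 (adjusted p = 0.0648 to 0.108). In light NAC1 had a log2 fold change of 0.61 (SE 0.29, adjusted p = 0.0782) and passed without CYP light replicate 3 (adjusted p = 0.0136). Both seed members were higher in CYP in light, NARS1 by a log2 fold change of 0.70 (SE 0.29, adjusted p = 0.04901) and ANAC060 by a log2 fold change of 0.25 (SE 0.10, adjusted p = 0.0399). The NARS1 call ended without TUR light library 2 or 3 or CYP light library 1 or 3, or in DESeq2 or limma (adjusted p = 0.0558 to 0.158), and that of ANAC060 without any of 5 libraries, TUR light library 1 or 2 or CYP light library 1 or 2 or 3, or in limma or with a filter at 5 CPM (adjusted p = 0.0503 to 0.139). ANAC032, higher in CYP light by 0.39 on the log2 scale, was not called with all libraries and passed without TUR light replicate 1 (adjusted p = 0.00481).

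The locus AT1G01010 (ANAC001, a membrane-bound factor) has 10 matching models, 5 tested and 4 with 0 reads. Most of the models carry neighbouring numbers, from AA1G00022 to AA1G00033. If such copies are alike in sequence, reads can be split among them, so that values of single copies are uncertain. AA1G00029 gave 2.23, 3.58 and 2.95 CPM in TUR darkness against 1.87, 1.75 and 2.34 in TUR light, and 0.0999, 0.1197 and 0.152 in CYP darkness against 0.0796, 0 and 0 in CYP light. It had 105 reads in TUR dark against 3 in CYP dark, a 23.9-fold ratio with a counting interval of 7.96 to 118, and 70 against 1 in light, a 76.7-fold ratio with an interval of 13.3 to 3074. AA1G00022 gave 1.15, 0.754 and 0.853 CPM in TUR darkness against 1.80, 1.995 and 1.36 in TUR light, and 2.796, 3.11 and 3.80 in CYP darkness against 4.14, 1.97 and 3.22 in CYP light. It differed in the other direction, higher in CYP by a log2 fold change of 1.77 (SE 0.34, adjusted p = 0.000342) in darkness and 0.88 (SE 0.29, adjusted p = 0.0164) in light, where the call ended without TUR light library 3 or CYP light library 1 (adjusted p = 0.0691 to 0.0898). The other 3 tested copies, AA1G00023, AA1G00027 and AA1G00033, were called in no comparison.

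**Figure D5:**
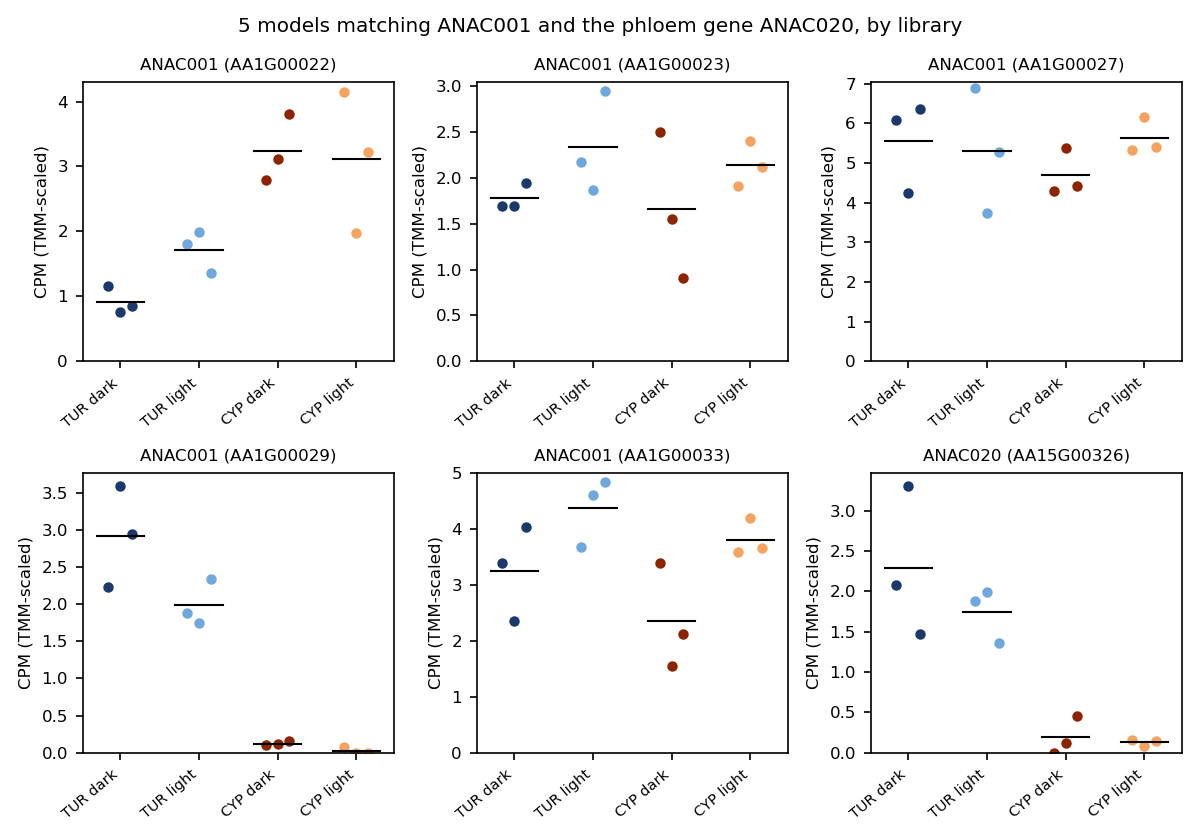
CPM (TMM-scaled, linear axes from 0) by library for the 5 tested models that match ANAC001 and for the phloem factor ANAC020, with a bar at each group mean. AA1G00029 and ANAC020 are near 0 in CYP, AA1G00022 is higher in CYP dark than in TUR dark, and the other copies overlap between accessions.

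A further 42 described models were not tested. The highest value among them was 2.02 CPM, in 1 library of ANAC055 (AA26G00262), a factor of jasmonate and ABA responses. Just inside the filter, which used CPM scaled by library total, lay with 3 libraries at 1 CPM XND1 (highest library 1.37 CPM), FEZ (1.78 CPM) and JUB1 (3.27 CPM). Just outside, with 2 libraries, lay a model of AT1G65910 (1.24 CPM), the boundary factor CUC1 (1.51 CPM) and a second BRN2 model, AA54G00190 (1.60 CPM). ANAC025, in Arabidopsis a factor of the endosperm at germination, has 2 matching models with 0 of 133656285 reads, which allows up to 0.0224 CPM. No gene model had the family members NAC1L, ANAC089 or NARS2 as its matching Arabidopsis gene.

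The description rule left out some known NAC factors whose descriptions word the family otherwise. NTL8 (AA32G00958), a membrane-bound factor that in Arabidopsis ties salt and gibberellin to germination, was named after its values were seen. It stood at 6.57 ± 0.551 CPM (mean ± SD, n = 3) in TUR darkness against 25.4 ± 2.198 in TUR light, and 17.2 ± 1.24 in CYP darkness against 35.4 ± 5.43 in CYP light. NTL8 rose in light by a log2 fold change of 1.95 (SE 0.14, adjusted p = 7.71e-09) in TUR and 1.04 (SE 0.13, adjusted p = 6.37e-06) in CYP. The rise was smaller in CYP by a log2 difference of -0.91 (SE 0.19, adjusted p = 0.0145), and CYP dark was above TUR dark by a log2 fold change of 1.38 (SE 0.15, adjusted p = 4.88e-07). NTL9 (AA87G00007), also membrane-bound, was not called in light and was higher in CYP by a log2 fold change of 1.40 (SE 0.10, adjusted p = 2.8e-09) in darkness. ANAC014 (AA54G00203) fell in light in CYP, at a log2 fold change of -0.44 (SE 0.13, adjusted p = 0.0205), against -0.30 (SE 0.12, adjusted p = 0.101) in TUR.

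Genes of the processes that these factors are known to control were counted from lists of known pathway genes. Over all models 18.4% were called for light in TUR and 24.9% in CYP, and the counts of these short lists were not tested against those shares. Of 9 tested genes of chlorophyll breakdown and senescence, 1 rose and 2 fell in TUR, and 3 rose in CYP. In CYP the chlorophyll b reductase NYC1 rose by a log2 fold change of 0.81 (SE 0.14, adjusted p = 0.000205), the pheophytinase PPH by a log2 fold change of 0.61 (SE 0.14, adjusted p = 0.00334) and the Mg-dechelatase SGR1 by a log2 fold change of 0.48 (SE 0.13, adjusted p = 0.0125). In TUR the pheophorbide oxygenase PAO rose by a log2 fold change of 0.85 (SE 0.23, adjusted p = 0.0143), and the sugar transporter SAG29 and the protease SAG12 fell, at a log2 fold change of -0.71 (SE 0.12, adjusted p = 0.000507) and -0.53 (SE 0.17, adjusted p = 0.0313). The difference between accessions was called for SAG29 (0.74, adjusted p = 0.0416) and not for NYC1 (0.77, adjusted p = 0.0518), SGR1 or PPH. Nor was it called for PAO (-0.98, adjusted p = 0.161) or SAG12 (0.55, adjusted p = 0.272).

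Of 6 ABA and drought models 2 rose in each accession. RD22 had 45 reads in TUR dark and 390 in TUR light and rose by a log2 fold change of 3.17 (SE 0.31, adjusted p = 5.99e-07), while it had 11 and 10 reads in CYP. The light response of RD22 was lower in CYP than in TUR by a log2 difference of -3.89 (SE 0.89, adjusted p = 0.0262). RD29B rose by a log2 fold change of 0.31 (SE 0.10, adjusted p = 0.0388) in TUR and 1.23 (SE 0.10, adjusted p = 5.34e-08) in CYP, with a difference of 0.92 (SE 0.14, adjusted p = 0.00135), and the second rise in CYP was a model of the alcohol dehydrogenase ADH1 (AA39G00353), by a log2 fold change of 0.54 (SE 0.19, adjusted p = 0.0482). Of 2 tested genes of the mitochondrial retrograde list, the alternative oxidase AOX1A fell in CYP, at a log2 fold change of -0.95 (SE 0.22, adjusted p = 0.00393), and had a log2 fold change of 0.38 (SE 0.17, adjusted p = 0.138) in TUR, a log2 difference of -1.34 (SE 0.28, adjusted p = 0.0164). Of 8 DNA damage models 1 fell in TUR and 3 in CYP. The ribonucleotide reductase subunit TSO2 fell, at a log2 fold change of -0.70 (SE 0.10, adjusted p = 7.75e-05) in TUR and -1.81 (SE 0.11, adjusted p = 7.06e-10) in CYP, and the repair gene BRCA1 fell in CYP, at a log2 fold change of -1.001 (SE 0.25, adjusted p = 0.00551). The mitotic cyclin CYCB1;1, named after its values were seen, rose in CYP by a log2 fold change of 0.48 (SE 0.13, adjusted p = 0.0122).

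Of 9 secondary wall genes, MYB58, a lignin regulator, fell in TUR, at a log2 fold change of -0.95 (SE 0.21, adjusted p = 0.00418). In CYP 0 of the 9 were called in edgeR, DESeq2 or limma, and 2 had an unadjusted p under 0.05 in edgeR. Of 7 proteasome models the subunit RPN10 rose in TUR by a log2 fold change of 0.31 (SE 0.10, adjusted p = 0.0341). In CYP 0 of the 7 were called by any of the 3 tools, and 0 had an unadjusted p under 0.05 in edgeR. Of 3 organ boundary models, of the homeobox gene KNAT6 and of STM, the KNAT6 model AA38G00045 fell in TUR, at a log2 fold change of -0.50 (SE 0.12, adjusted p = 0.00655). The other KNAT6 model, AA39G00533, had -0.27 (SE 0.14, adjusted p = 0.186) in TUR and was not called. In CYP 0 of the 3 were called by any of the 3 tools, and 1 had an unadjusted p under 0.05 in edgeR. Of 4 seed expansin models, which loosen cell walls, 2 fell in each accession. EXPA2 fell, at a log2 fold change of -2.21 (SE 0.21, adjusted p = 5.42e-07) in TUR and -3.04 (SE 0.24, adjusted p = 3.04e-08) in CYP. EXPA8 fell in TUR, at a log2 fold change of -1.31 (SE 0.30, adjusted p = 0.00473), and had -1.32 (SE 0.48, adjusted p = 0.0535) in CYP, which was not called. The EXPA1 model AA47G00004 fell in CYP, at a log2 fold change of -0.52 (SE 0.12, adjusted p = 0.003798), and had -0.19 (SE 0.12, adjusted p = 0.290) in TUR. DESeq2 called 3 of the 4 expansin models in CYP. The difference between the light responses was called for no model of the secondary wall, proteasome, organ boundary or seed expansin lists.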

How the data were processed

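Per the labels' protocols, poly(A) RNA of whole imbibed seeds entered a SENSE mRNA library preparation (Lexogen). Tools named, without roles, in the submitters' processing notes are HTSeq 0.6.1, Bowtie2 2.2.3, Trimmomatic and bcl2fastq 2.17.1, with TAIR10 as a build. Strand use in counting, and the release and accession behind the A. arabicum models, were not given in the sources used here. Per the file headers, the authors' deposited table holds raw counts and RPKM of 12 libraries for 23594 gene models, with gene length and the description of the matching Arabidopsis gene. The deposited RPKM equals the count divided by length and total in CYP but not in TUR libraries, and was not used.

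From the counts, models with at least 1 CPM in 3 libraries were tested with edgeR 4.0.16 (R 4.3.3). TMM scaling was used, one model with 4 group means covered all 12 libraries, and quasi-likelihood p-values received Benjamini-Hochberg adjustment over 15671 models within each comparison. SE is the log2 fold change divided by the square root of F. CPM and RPKM in the text are TMM-scaled, and marker RPKM is scaled by library total. The test was checked on simulated counts in which genes of at least 5 CPM were changed by known folds in TUR light. That check did not cover the recovery of changes in members under 5 CPM. Folds against 0 reads are ratios against 3 reads summed over the group, and leave out the counting error of the other group. Other folds against up to 3 reads are ratios with exact 95% intervals, which cover counting error only. Alternatives were RLE size factors, DESeq2 1.42.0, limma 3.58.1 on log2(RPKM + 1), no filter, a filter at 5 CPM, only the groups compared, a replicate block, and each library left out in turn.

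Members described by library were those called for the difference of light responses, those among the 6 largest called rises or falls of a comparison, the 6 highest in RPKM, and the seed list. ATAF2, ANAC078, ANAC082, SOG1, ORS1, VND3 and the factors outside the description rule were named after their values were seen. From the lists of related pathway genes up to 3 called genes were named per light comparison. The values of 1 further called gene of these lists are not reported here. Members and lists were chosen with earlier results of these data known. The labels do not say that replicates came from separate seed batches, so p-values measure the spread between these libraries, which may be technical.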

Additional observations from a re-analysis of the deposited data

Results flagged for a closer look

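NTM2 (AA32G00197) was the single member whose light response differed between the accessions by the test of the difference itself, with a log2 difference, CYP minus TUR, of 0.95 (SE 0.18, adjusted p = 0.00633 in edgeR). Every TUR dark library was above every TUR light library, and the CYP groups overlapped in 1 dark and 1 light library.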

How the results depend on the processing

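With a filter at 5 CPM, 18 members were left to test. The calls were 10 for light in TUR, 7 higher and 3 lower, and 4 for light in CYP. Between accessions they were 6 in darkness and 7 in light. Besides the smaller number tested, the call of ANAC060 between accessions in light ended (adjusted p = 0.0503), and its fall in TUR was called (adjusted p = 0.0422). Leaving out 1 library gave 7 to 11 calls for light in TUR, 7 to 10 for light in CYP, 16 to 19 between accessions in darkness and 18 to 22 in light, and 1 for the difference of light responses. The other alternatives moved no total by over 1.5 times. By direction, with RLE size factors 4 rather than 2 members fell in TUR. For CYP, where 5 rose and 6 fell, limma gave 5 and 3, no filter 6 and 4, and a fit of only the groups compared 4 and 4. No call turned to the opposite direction under any alternative run. Log2 fold changes that were not called changed sign in 91 of 1440 results with 1 library left out and 16 of 1250 under the other settings, among them NARS1 in TUR, which was 0.0104 without TUR dark replicate 1. Under every alternative run, 7 of 11 calls held for light in TUR, 4 of 11 in CYP, 12 of 20 between accessions in darkness and 15 of 23 in light, and that of NTM2 for the difference. Those in CYP were ATAF1, ANAC032, FEZ and CUC2, of which FEZ and CUC2 were not tested at 5 CPM. Members not tested at 5 CPM also count among the calls held for light in TUR and between accessions, with fewer alternatives run. FEZ, JUB1, the RD26 model AA32G01100, ANAC020, XND1 and AA1G00029, all among the calls held, met the filter through a single accession or condition. The filter itself favours the direction of these calls. Over the 40 members, leaving out 1 library of the groups compared ended a call in 79 cases and began one in 17; the cause was not tested. The replicate numbers did not pair the libraries. Of 18 pairs with the same number, 3 correlated above 0.1 (range -0.353 to 0.182), and 13 of 36 best matches shared the number. With a replicate block the calls were 11 in TUR, 11 in CYP, 18 in darkness, 23 in light and 1 for the difference. The block ended the calls of SND3 for light in CYP (adjusted p = 0.0589), of NAC1 (0.0535) and a model of AT3G17730 (0.0553) between accessions in darkness and of ANAC060 in light (0.0509). It began those of ANAC032 between accessions in light (0.0418) and of AA87G00083 for light in CYP (0.04999). Fold changes from log2(RPKM + 1) are smaller for low members by construction. Depth limits the 24 members under 5 CPM, for which 3 reads in a library are 0.215 to 0.423 CPM.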
